A study of Mus musculus with 39 samples.

Results

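Gpnmb, Trem2, Pparg, Abcg1, Abca1, Cd36, Fabp4, Lpl, Plin2 and Cd9 are 10 genes that macrophages use to sense, take up, store and export lipid. Members were found on the array by gene symbol: every probe whose symbol, updated through its gene ID, was one of these names was taken, which gave 1 probe for each gene and 10 probes among the 20868 on the array. All 10 passed the filter on dim probes that left 17560 probes for testing. The genes were selected on the log2 ratios of these same arrays and their differences between smoke and sham mice, so their levels across the groups and the p-values beside them are a description and not independent evidence of a response to smoke.

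Whole lung RNA came from male F1 mice of a C57B1/CBA cross, with 1 lung per array and 39 arrays in all. The mice were 8 to 10 weeks old when put into exposure, so age at collection was not the same in all 8 groups. Treated mice breathed mainstream tobacco smoke (MTS) from 2 cigarettes daily on 5 days of the week in a nose-only system, for 6 weeks (6 week smoke, 5 mice) or 12 weeks (12 week smoke, 4 mice). Further mice had the same exposures followed by 6 weeks without smoke (6 week smoke and break and 12 week smoke and break, 5 mice each). Each of these had its own sham group of 5 mice that were held in restrainers without smoke, named 6 week sham, 12 week sham, 6 week break sham and 12 week break sham. The labels give collection at 3 hours after exposure for all 8 groups, including those with a break. Lung cRNA carried Cy5 and was hybridized against 1 universal mouse reference RNA in Cy3, so each value is the log2 ratio of lung to reference for 1 probe. These ratios compare arrays for the same gene and were not compared between genes.

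Macrophages of the lung clear inhaled particles, cell debris and spent surfactant, and so handle a steady load of phospholipid and cholesterol. Lipid is taken up by scavenger receptors and after hydrolysis by lipases, is carried by fatty acid binding proteins, is stored in droplets, and leaves the cell through sterol transporters driven by liver X receptors (LXR). Pparg is a nuclear receptor that alveolar macrophages need for their identity, and Trem2 and Gpnmb are known from macrophages that are loaded with lipid in several tissues.

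The arrays were of lung: all 18 alveolar type II cell markers on the list used here were measured, 13 of them above the array threshold on all 39 arrays, and their mean log2 ratio was at or above 2.19 on every array. Median Cy5 signal was 2.21 to 8.94 times local background, and 48.4% to 94.6% of probes passed the threshold on an array. One array went against its label. Cyp1a1 and Cyp1b1, targets of the aryl hydrocarbon receptor that is activated by smoke, lay at 5.07 to 8.06 and 1.47 to 2.32 on the 9 arrays of mice killed soon after smoke. On the array labelled 6 week sham m2 they lay at 6.46 and 2.00, against 0.45 to 2.81 and -1.74 to -0.28 on the other 29 arrays. It stood in the last of 5 runs in the order of the exposure-date labels. That run held 2 arrays labelled 6 week sham and none labelled 12 week smoke. In the other 4 runs an array labelled 12 week smoke came directly before 12 week sham, and here this array did. Whether its label is wrong was not tested. The array was kept under its label. Results that rest on it are given with and without it where its absence changes a call or a value by more than 1.5 times. The same is done where the 6 week groups are set out mouse by mouse.

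At 12 weeks Gpnmb, Trem2 and Pparg were higher after smoke than in sham lungs, by 2.31-fold, 1.68-fold and 1.63-fold. These were 3 of the 10 genes, beside 0.376% of the 17560 probes that were higher and 0.433% in either direction, and nothing is read from that share because the members were picked with this contrast known. The median difference of the 10 genes was 0.51 on the log2 scale, and that of all probes was 0.0054. The 10 include Abca1, which was near background, and Cd9, whose lung spot was at the scanner limit on 12 arrays. With median centring in place of loess Trem2 and Pparg missed the threshold (limma, adjusted p = 0.0524 each), and none of the 3 passed on the lung channel alone or with only the 2 groups in the fit. At 6 weeks no member passed, beside 0.0626% of probes. After the break no member passed at either duration, and 0 of 17560 probes did by limma, with 758 and 1129 at an unadjusted p under 0.05 after 6 and 12 weeks of smoke.

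Upstream sequence is shown for Gpnmb, Trem2 and Pparg because these were the genes that rose together. Promoters from RefSeq (GRCm38.p6) were found for 7 of the 10 genes. The 250 bases before the start are printed 5′ to 3′ on the strand of the gene, and capitals mark matches to any of 5 motifs searched on both strands. These were the E-box CACGTG, the PU.1 site GAGGAAGT, the AP-1 site TGANTCA, the nuclear receptor hexamer AGGTCA and the antioxidant response element TGACNNNGC. All 3 genes are on the plus strand. Pparg has 3 start sites in the table.
Gpnmb, chr6:49036268-49036517: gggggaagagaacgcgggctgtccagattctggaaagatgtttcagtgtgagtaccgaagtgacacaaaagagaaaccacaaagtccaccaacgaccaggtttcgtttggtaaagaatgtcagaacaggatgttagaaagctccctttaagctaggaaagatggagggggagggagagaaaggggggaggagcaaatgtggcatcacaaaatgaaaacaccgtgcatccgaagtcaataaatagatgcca
Trem2, chr17:48346151-48346400: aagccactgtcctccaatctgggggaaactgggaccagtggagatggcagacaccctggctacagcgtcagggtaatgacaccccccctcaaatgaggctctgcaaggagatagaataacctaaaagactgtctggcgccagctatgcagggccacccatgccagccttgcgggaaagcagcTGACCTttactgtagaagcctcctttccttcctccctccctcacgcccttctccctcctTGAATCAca
Pparg start site 1, chr6:115360894-115361143: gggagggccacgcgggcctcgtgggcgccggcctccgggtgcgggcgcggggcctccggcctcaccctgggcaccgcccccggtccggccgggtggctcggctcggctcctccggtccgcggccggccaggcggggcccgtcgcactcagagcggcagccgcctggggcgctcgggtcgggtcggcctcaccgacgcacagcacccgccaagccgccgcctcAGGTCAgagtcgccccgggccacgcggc
Pparg start site 2, chr6:115362099-115362348: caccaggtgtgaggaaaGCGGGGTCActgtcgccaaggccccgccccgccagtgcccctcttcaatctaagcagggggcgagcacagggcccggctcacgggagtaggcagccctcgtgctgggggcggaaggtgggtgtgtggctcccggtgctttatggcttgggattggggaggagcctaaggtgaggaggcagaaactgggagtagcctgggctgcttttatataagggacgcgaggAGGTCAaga
Pparg start site 3, chr6:115421816-115422065: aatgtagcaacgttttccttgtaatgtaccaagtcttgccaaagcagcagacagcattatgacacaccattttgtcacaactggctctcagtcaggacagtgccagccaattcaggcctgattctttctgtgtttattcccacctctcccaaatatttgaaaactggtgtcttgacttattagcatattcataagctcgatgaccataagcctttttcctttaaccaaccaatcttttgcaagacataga

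The windows of the 3 genes had no motif in common. Gpnmb held none of the 5. Trem2 held an AP-1 match 9 to 3 bases before the start, which 6.75% of all 32851 promoter windows of this length also hold, and an AGGTCA on the opposite strand 68 to 63 bases before it. Pparg held AGGTCA at start sites 1 and 2 and an antioxidant response element match at start site 2, beside 14.0% and 10.2% of all windows, and none at start site 3. The E-box was in 6.02% and the PU.1 site in 2.44% of all windows and in none of these. A match describes letters only.

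Gpnmb, a transmembrane glycoprotein of lysosome-rich macrophages, showed the clearest separation by smoke. Its log2 ratio in 12 week sham mice was -2.68, -2.67, -2.25, -2.80 and -3.003, and in 12 week smoke mice it was -1.33, -1.32, -1.76 and -1.49. All 4 smoke mice lay above all 5 sham mice, as 1.99% of probes did in this comparison. The difference was 1.21 ± 0.20 on the log2 scale (SE, limma, adjusted p = 0.000828 over 17560 probes), and within the 4 runs of the exposure-date labels that held both groups it was above 0 in 4 of 4, from 0.49 to 1.51.

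At 6 weeks the Gpnmb values were -3.24, -1.71, -2.55, -2.59 and -2.40 in sham mice and -1.98, -1.93, -2.18, -2.12 and -1.15 in smoke mice. The groups overlapped only through the array labelled 6 week sham m2, which at -1.71 lay above 4 of the 5 smoke mice. How many of all probes were apart without that array was not counted. With that array the difference was 0.61 ± 0.19 (SE, limma, adjusted p = 0.302). Without it the difference was 0.80 ± 0.17 (SE, limma, adjusted p = 0.0273), and Gpnmb was then the 1 member called at 6 weeks, beside 0.154% of probes higher and 0.188% in either direction. Mouse m5 of 6 week smoke was far above the other 4 smoke mice.

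After the break Gpnmb was back among the low groups. The 6 week break sham mice had -3.07, -2.59, -2.67, -2.82 and -3.04, and the 6 week smoke and break mice had -3.14, -2.66, -2.999, -2.64 and -2.95, with full overlap. At 12 weeks the smoke and break mice had -2.48, -2.52, -2.48, -2.53 and -2.49, against -2.58, -2.59, -2.72, -2.58 and -2.90 in break sham. These groups did not overlap, which 0.467% of probes did in this direction, but the difference was small, 0.18 ± 0.18 (SE, limma, adjusted p = 0.895). The 5 smoke and break mice had an SD of 0.02, the smallest of the 8 Gpnmb groups, and the difference within runs was above 0 in 5 of 5, from 0.07 to 0.42. The narrow spread depended on the processing. On the log2 ratios as normalized by the authors these mice had an SD of 0.20, not the smallest, and break sham had 0.18.

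In order of group means Gpnmb ran from 12 week smoke (-1.48 ± 0.21, SD, n = 4) and 6 week smoke (-1.87 ± 0.42, SD, n = 5) to the 6 groups at or below -2.50. The first pair was 0.40 apart, less than the SD of 6 week smoke. The last 6 followed each other in steps of at most 0.18. That step, from 12 week smoke and break down to 12 week break sham, was larger than the SD of either group in this processing. The other steps were smaller than the SD of 1 or both neighbours. On the authors' ratios the SD was 0.20 in 12 week smoke and break and 0.18 in 12 week break sham. The smoke difference was larger without than with the break by 1.03 ± 0.27 at 12 weeks (SE, limma, adjusted p = 0.206) and by 0.65 ± 0.26 at 6 weeks (SE, limma, adjusted p = 0.732), so neither change over the break passed. Without 6 week sham m2 the latter was 0.84 ± 0.23 (SE, limma, adjusted p = 0.327). At 12 weeks 0.0683% of probes passed that test, and at 6 weeks none did by limma, with 1149 at an unadjusted p under 0.05.

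Trem2, a lipid-sensing receptor of macrophages, rose at 12 weeks, and its 12 week sham mice were closely alike. The 12 week sham mice had -2.17, -2.25, -2.24, -2.24 and -2.31, and the 12 week smoke mice had -1.44, -1.34, -1.79 and -1.39, so the groups were apart. The difference was 0.75 ± 0.15 (SE, limma, adjusted p = 0.00706) and was above 0 in 4 of 4 runs. It passed without any 1 array except 12 week smoke m1 (adjusted p = 0.0516) or m2 (adjusted p = 0.0667).

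At 6 weeks Trem2 was -2.41, -1.70, -2.29, -1.78 and -1.79 in sham mice and -1.78, -2.10, -1.84, -1.99 and -1.47 in smoke mice. These ranges overlapped with the doubtful sham array and without it. The difference was 0.16 ± 0.14 (SE, limma, adjusted p = 0.819), and 0.24 ± 0.14 without 6 week sham m2 (SE, limma, adjusted p = 0.65). The 12 week difference exceeded that at 6 weeks by 0.59 ± 0.20 (SE, limma, adjusted p = 0.971), which did not pass. No probe passed that comparison of durations by limma, with 854 at an unadjusted p under 0.05.

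With the break, the Trem2 range in 6 week mice was -2.30 to -1.97 for break sham against -2.29 to -1.88 for smoke and break. In 12 week mice the ranges were -2.28 to -1.95 for break sham and -2.24 to -1.49 for smoke and break. Mouse m4 of 12 week smoke and break, at -1.49, was as high as the 12 week smoke mice, and the other 4 lay within or near the range of break sham. The break differences were 0.07 ± 0.14 and 0.18 ± 0.14 (SE, limma, adjusted p = 0.999 and 0.857).

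Pparg, the nuclear receptor of fatty acid storage and of alveolar macrophage identity, was also separated at 12 weeks. Sham mice had 0.51, 0.23, 0.50, 0.75 and 0.90 and smoke mice had 1.16, 1.39, 1.03 and 1.42, with no overlap and a difference of 0.71 ± 0.12 (SE, limma, adjusted p = 0.00189). Within runs it was above 0 in 4 of 4, from 0.53 to 1.16. The 12 week sham group was itself the lowest of the 8 groups for Pparg, at 0.58 ± 0.26 (SD, n = 5), 0.33 under the next lowest, whereas the other 3 sham groups had means of 0.92 to 0.97. The 12 week smoke mean of 1.25 ± 0.19 (SD, n = 4) was 0.13 above that of 6 week smoke.

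At 6 weeks Pparg was 0.69, 1.42, 1.03, 0.96 and 0.76 in sham mice and 1.11, 0.99, 1.23, 1.07 and 1.19 in smoke mice. The highest of these 10 values was that of the array labelled 6 week sham m2. The difference was 0.18 ± 0.12 with it (SE, limma, adjusted p = 0.737) and 0.27 ± 0.11 without it (SE, limma, adjusted p = 0.447). With the break the differences were -0.04 ± 0.12 and 0.02 ± 0.12 (SE, limma, adjusted p = 0.999 and 0.986). The smoke difference at 12 weeks was larger without than with the break by 0.69 ± 0.17, which did not pass (SE, limma, adjusted p = 0.131).

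**Figure D1:**
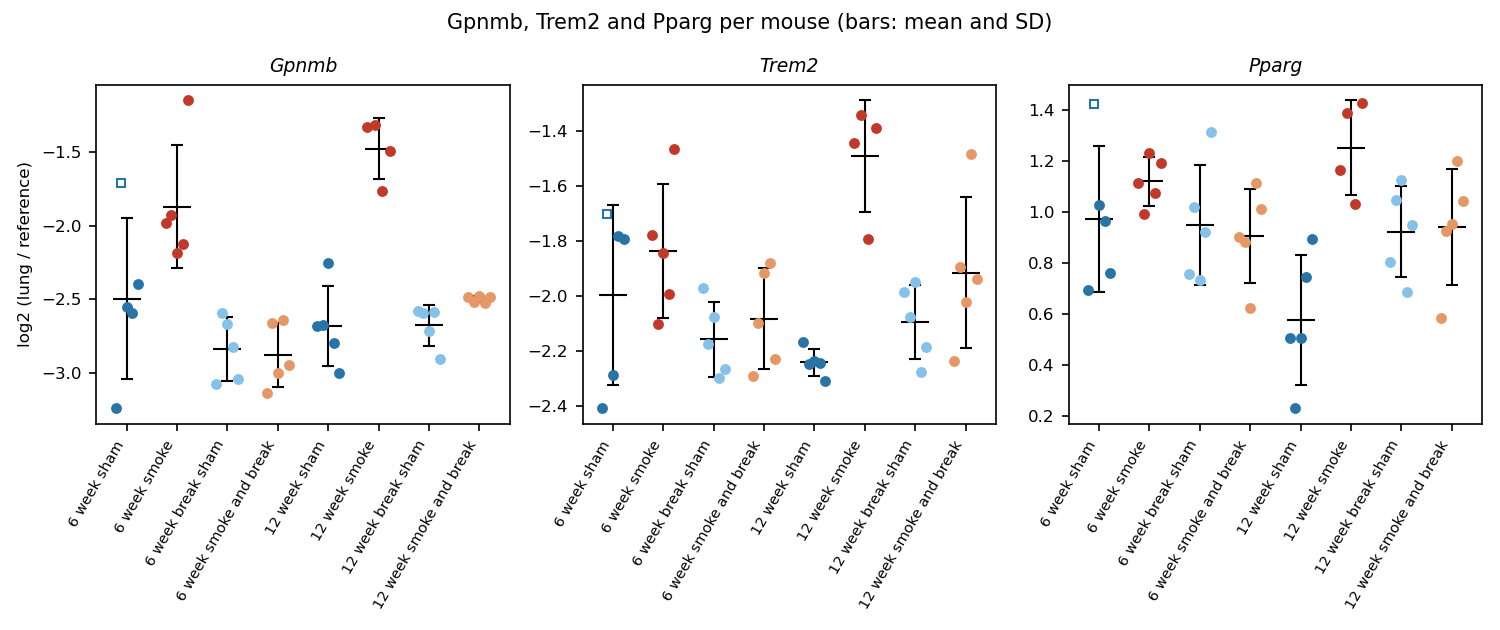
Log2 ratio of lung to reference (vertical axis) of Gpnmb, Trem2 and Pparg in each mouse of the 8 groups (horizontal axis), with black bars for mean and SD and an open square for the array labelled 6 week sham m2. The 12 week smoke mice lie above all 12 week sham mice in each panel, and the 12 week sham mean of Pparg is the lowest of its 8 groups.

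Abcg1, which exports cholesterol to high-density lipoprotein, was higher in mean after smoke at both durations without passing the test. At 6 weeks it was 2.03, 1.85, 1.97, 2.27 and 1.85 in sham and 2.73, 2.29, 2.26, 2.17 and 2.59 in smoke mice, and only m4 of sham overlapped with the smoke range. At 12 weeks it was 1.93, 1.64, 1.62, 1.84 and 2.15 in sham and 2.18, 2.49, 2.08 and 2.56 in smoke mice, where the highest sham mouse overlapped with the lowest smoke mouse. The differences were 0.39 ± 0.19 and 0.47 ± 0.20 (SE, limma, adjusted p = 0.594 and 0.43), the first being 0.36 ± 0.20 without 6 week sham m2 (adjusted p = 0.619). Over both durations the difference was 0.43 ± 0.14 (SE, limma, adjusted p = 0.13), and it passed without mouse m3 of 12 week smoke and break (adjusted p = 0.0354). That mouse had the lowest Abcg1 of all, 0.69, while its 4 group mates had 1.84 to 2.46.

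Abca1, the other LXR-driven sterol exporter, could not be measured here. Its lung signal was above the array threshold on 12 of 39 arrays and on none in 6 week sham or 12 week sham, 38 arrays carried a quality mark on the spot, and the median lung signal was 1.43 times background. It was not well above background, and no fold is given.

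Cd36, a scavenger receptor for oxidized lipoprotein and a carrier of long-chain fatty acids that endothelial cells also make, passed in no comparison. Its group means lay between 3.46 and 3.77, and the SD within groups was 0.24 over all 8. In 12 week sham mice it was 3.51, 3.69, 3.80, 3.71 and 3.87, and in 12 week smoke mice 3.87, 3.55, 3.86 and 3.52, fully overlapping. The 95% interval of that difference ran from -0.36 to 0.31, and the largest Cd36 difference was 0.31 ± 0.15, between 12 week smoke and break and its break sham (SE, limma, adjusted p = 0.772). That difference was 0.13 without m1 of 12 week break sham, which at 2.74 had the lowest Cd36 of all and a reference signal that was marked and not above the threshold.

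Lpl, the lipase that frees fatty acids from lipoproteins, was called only in the comparison over both durations. At 6 weeks it was 0.01, 0.47, 0.34, -0.20 and -0.33 in sham mice and 0.74, 0.46, 0.78, 0.54 and 0.82 in smoke mice. At 12 weeks it was 0.25, 0.52, 0.23, 0.86 and 0.10 in sham mice and 0.66, 1.08, 1.00 and 0.84 in smoke mice. In each case 1 sham mouse reached into the smoke range, which at 6 weeks was the array labelled m2 and at 12 weeks m4. The differences were 0.65 ± 0.21 and 0.55 ± 0.22 (SE, limma, adjusted p = 0.339 and 0.372) and were above 0 in 4 of 4 runs at each duration. Without 6 week sham m2 the first was 0.71 ± 0.22 (SE, limma, adjusted p = 0.232), and the 6 week groups did not overlap. The share of all probes without overlap in that comparison was not counted, so nothing is read from it.

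Over both durations Lpl differed by 0.60 ± 0.15 (SE, limma, adjusted p = 0.0407), and with Gpnmb, Trem2 and Pparg it made 4 of 10 members, beside 0.985% of probes higher and 1.22% in either direction. That call was lost in 6 of 15 other settings, among them those without the run block (adjusted p = 0.0734), without the filter (adjusted p = 0.0537), with a smaller offset (adjusted p = 0.0549) and with median centring (adjusted p = 0.0796). It was also lost on leaving out any 1 of 14 arrays, with adjusted p of 0.0561 to 0.086. These were all 4 mice of 12 week smoke, m1, m2, m3 and m5 of 12 week sham, m1, m3 and m5 of 6 week smoke and m1, m4 and m5 of 6 week sham. Without 6 week sham m2 the difference was 0.63 ± 0.15 (SE, limma, adjusted p = 0.0278).

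After the break the Lpl groups at 12 weeks overlapped. In 12 week smoke and break mice it was 0.40, 1.36, 0.55, 0.46 and 1.21, and in 12 week break sham 0.32, -0.36, 0.69, 0.40 and 0.26. The difference was 0.53 ± 0.20 and did not pass (SE, limma, adjusted p = 0.676), and the change over the break was 0.02 with a 95% interval from -0.59 to 0.63. Mice m2 and m5 of smoke and break were high, and the other 3 overlapped with break sham. The value of -0.36 came from m2 of break sham, the 1 array on which the Lpl signal was above the threshold in neither channel, and without it the difference was 0.35 (limma, adjusted p = 0.772). Without m2 of smoke and break it was 0.37.

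Fabp4, a fatty acid binding protein of adipocytes, capillary endothelium and macrophages, varied more within groups than any other member, with an SD of 0.75 within groups on the log2 scale. Its 6 week break sham mice had 2.17, 2.78, 3.11, 4.00 and 5.56, a wider range than that of the 8 group means, which lay between 2.84 and 3.67. Smoke differences were 0.70 ± 0.45 at 6 weeks and 0.55 ± 0.48 at 12 weeks (SE, limma, adjusted p = 0.735 and 0.806), the first being 0.85 ± 0.48 without 6 week sham m2 (adjusted p = 0.621). The 95% interval at 12 weeks ran from -0.42 to 1.53, so a change as large as that of Gpnmb lay inside the interval.

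Plin2, the coat protein of lipid droplets, changed little and was measured tightly. At 12 weeks it was 0.52, 0.31, 0.55, 0.25 and 0.69 in sham mice and 0.57, 0.63, 0.58 and 0.67 in smoke mice, all 4 inside the sham range. The difference was 0.12 ± 0.12 with a 95% interval from -0.12 to 0.37 (limma, adjusted p = 0.842). At 6 weeks mice m1 and m5 of the smoke group, at 0.88 and 1.05, lay above all sham mice and the other 3 lay within them.

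Cd9, a tetraspanin of macrophages, epithelium and endothelium, followed the runs and not the groups. Runs took up 72.0% of its variance and groups 8.15%. In the first run its 8 values lay between 0.20 and 1.13 and all 8 lung spots were at the scanner limit, whereas in the other 4 runs it lay between 0.89 and 2.57 with 4 spots at the limit among 31 arrays. The part of the limit in the low values was not tested. With run as a block the smoke differences were 0.25 ± 0.18 and 0.30 ± 0.19 (SE, limma, adjusted p = 0.764 and 0.682), and on the lung channel alone both were -0.15. The spots at the limit included sham and smoke mice of both durations, so the size and direction of these differences are not settled.

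**Figure D2:**
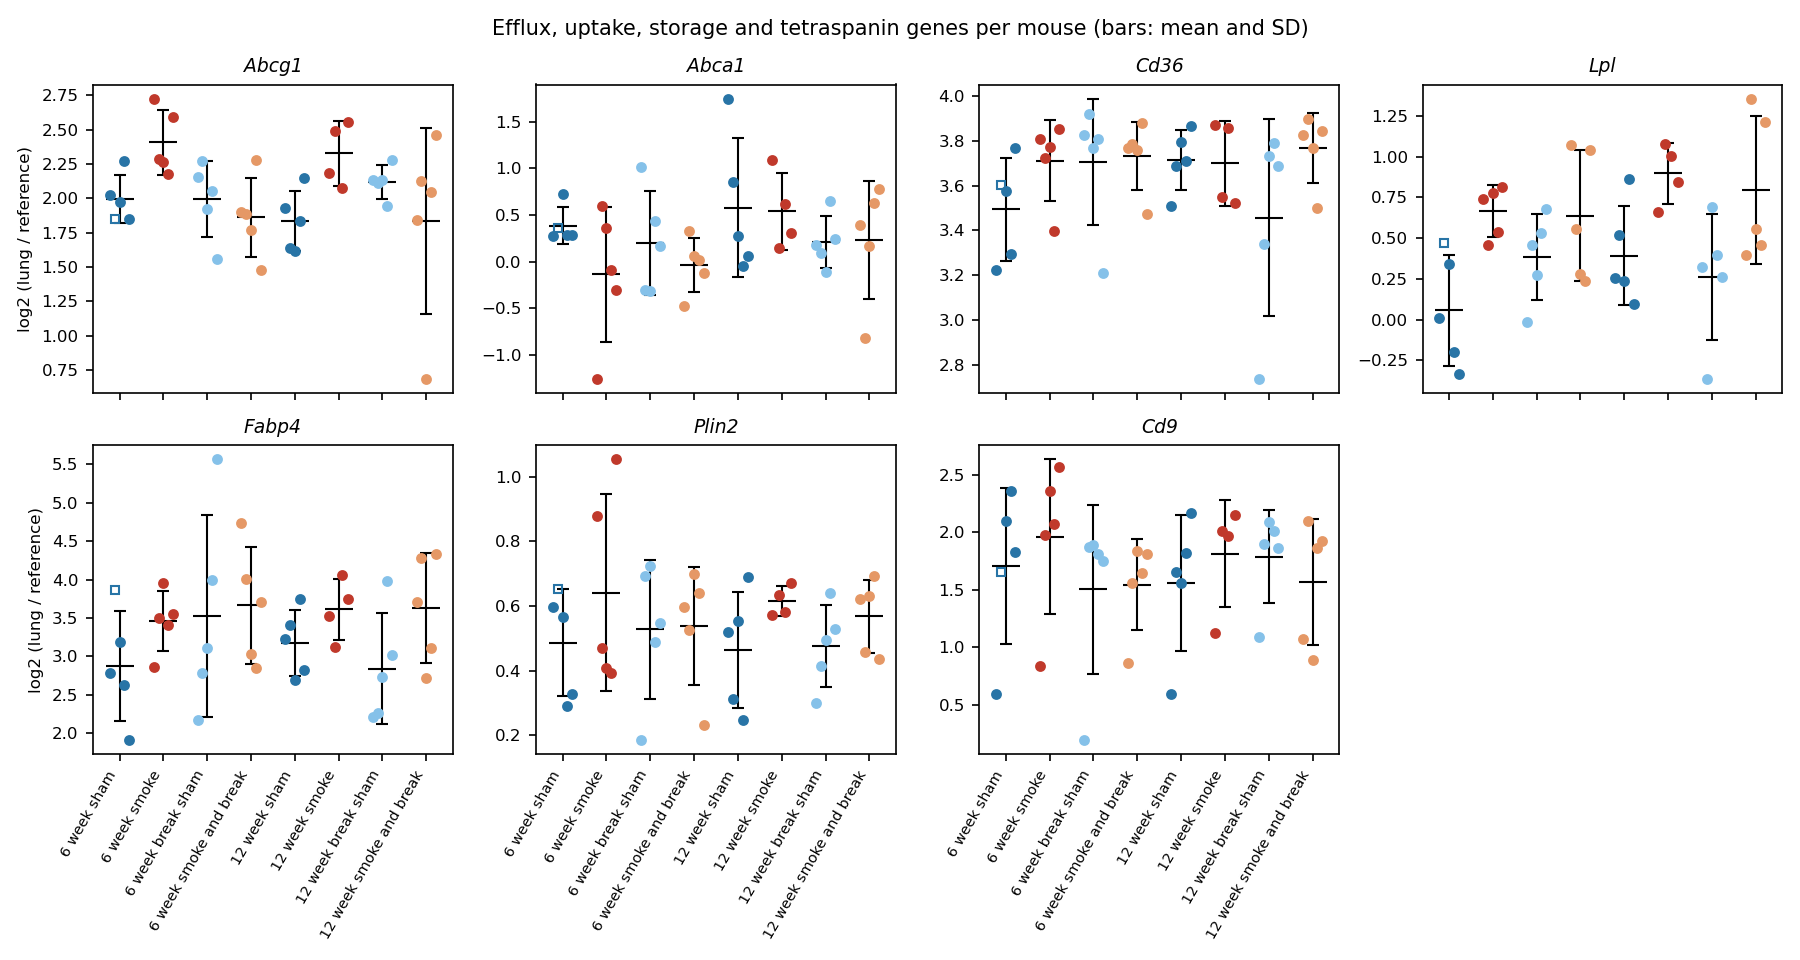
Log2 ratio of lung to reference (vertical axes, each on its own scale) of the other 7 members in each mouse of the 8 groups (horizontal axis), with black bars for mean and SD and an open square for the array labelled 6 week sham m2. Abcg1 and Lpl have their highest or near highest means in smoke groups, Fabp4 spreads from 1.92 to 5.56, and the lowest Cd9 point in 7 of the 8 groups is an array of the first run.

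**Figure D3:**
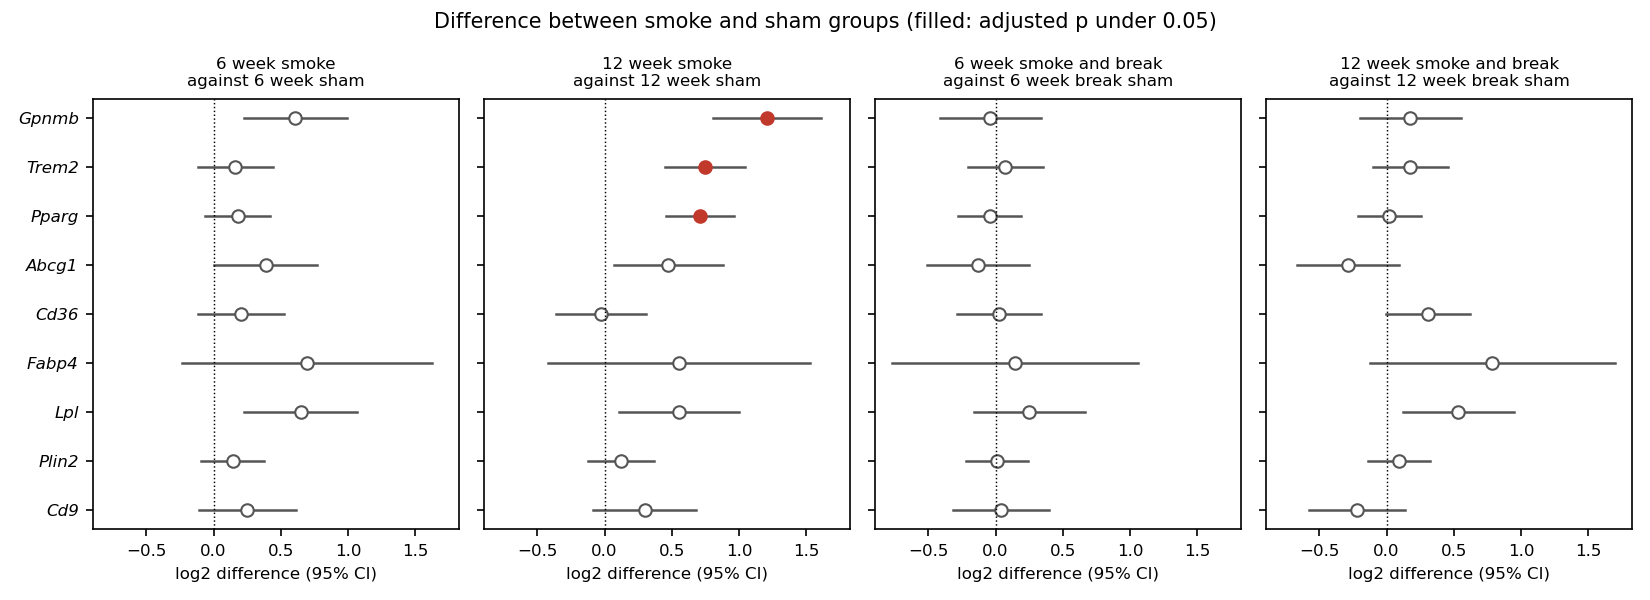
Fitted difference on the log2 scale (horizontal axis, with 95% interval) of each member but Abca1 (vertical axis) between smoke and sham without the break and between smoke and break and break sham. Filled circles mark an adjusted p under 0.05, and these are Gpnmb, Trem2 and Pparg at 12 weeks.

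The members fell into separate patterns when mice were compared one by one. After removal of run means, Pearson's r over 39 arrays was 0.81 between Gpnmb and Trem2, 0.62 between Gpnmb and Pparg and 0.62 between Trem2 and Pparg. The points share arrays and reference RNA, and in 29 arrays without the smoke groups and without 6 week sham m2 the values were 0.45, -0.09 and 0.18. Fabp4 and Lpl went together in both sets, with r of 0.69 and 0.71, and Fabp4 had r of 0.07 with Gpnmb and -0.08 with Trem2. Cd9 and Abcg1 had r of 0.64 and 0.57, but 0.27 over 39 arrays with run means kept. Cd9 was at the scanner limit throughout the first run, and m3 of 12 week smoke and break was low for both genes (Abcg1 0.69, Cd9 0.89).

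**Figure D4:**
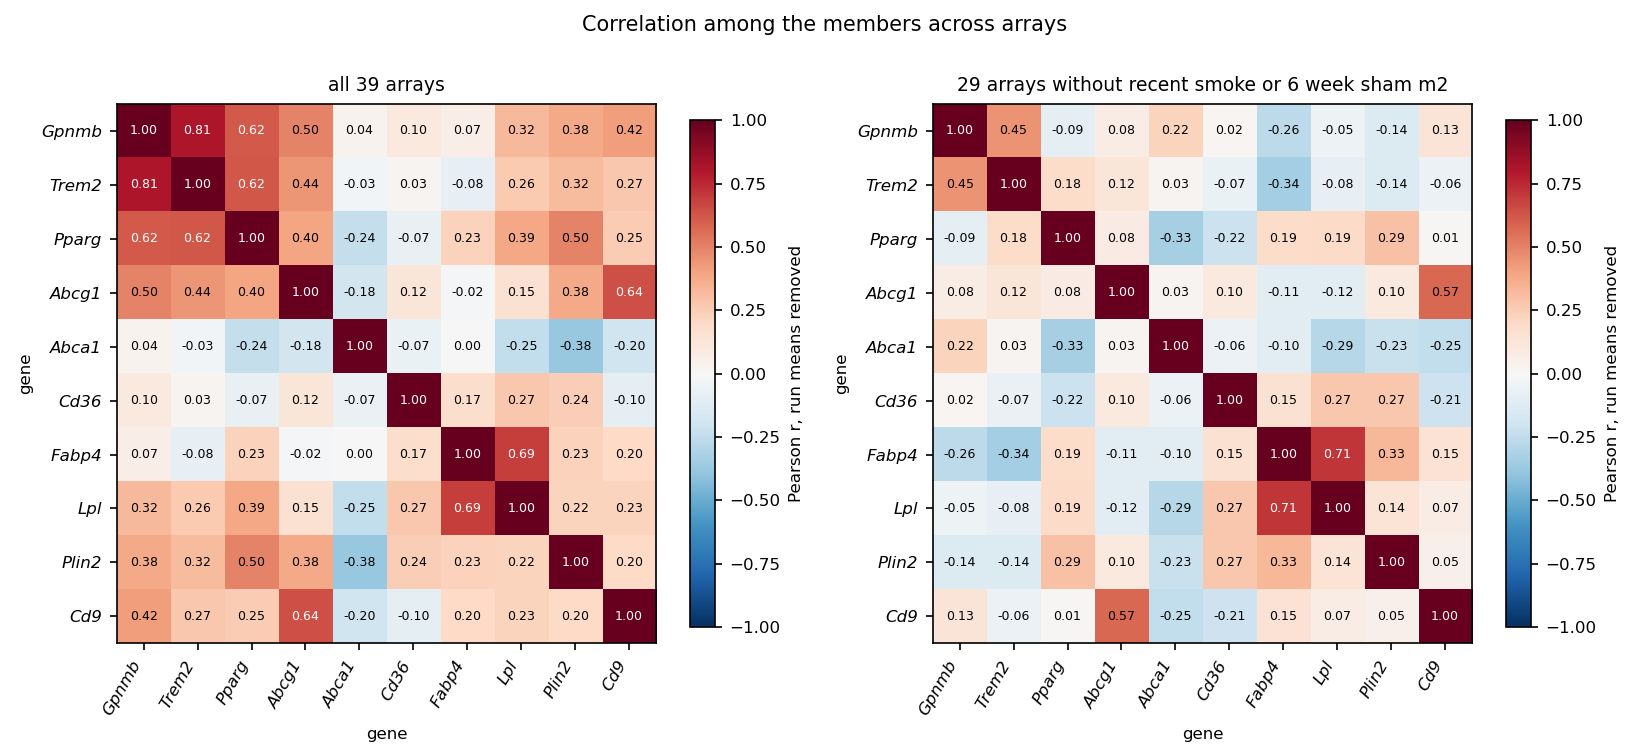
Pearson's r between members (both axes) after removal of run means, over all 39 arrays (left) and over 29 arrays without recent smoke or 6 week sham m2 (right), with colour and number for r. Gpnmb, Trem2 and Pparg have r of 0.62 to 0.81 on the left and -0.09 to 0.45 on the right, and Fabp4 with Lpl has 0.69 and 0.71.

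The named genes most like each member over the 39 arrays differed in the same way. Those most like Gpnmb were Cyp1b1 (r = 0.89), Nqo1 (r = 0.87) and Srxn1 (r = 0.87), a target of the aryl hydrocarbon receptor and antioxidant enzymes, and in the 29 arrays without smoke these fell to 0.34, 0.05 and 0.12. Those most like Trem2 were Gpnmb, Socs3 (r = 0.75), an inhibitor of cytokine signalling, and Ahrr (r = 0.75), the repressor of the aryl hydrocarbon receptor, and over the 29 arrays these had 0.45, 0.41 and 0.25. Pparg was most like 1810010H24Rik, Pon3 and Preb, with r of 0.75 to 0.76 over 39 and 0.56 to 0.64 over 29 arrays.

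Fabp4 was most like Plin4 (r = 0.86), a droplet coat protein of fat and muscle, Cox7a1 (r = 0.81), a respiratory subunit of heart and muscle, and Pdk4 (r = 0.80), a brake on glucose oxidation. Lpl was most like Apoo (r = 0.74), Perm1 (r = 0.74) and Lmod3 (r = 0.72), and Perm1 and Lmod3 are known from striated muscle. For both genes r was as high or higher in the 29 arrays without smoke, at 0.82 to 0.88 for Fabp4 and 0.76 to 0.87 for Lpl. For Abcg1 the gene most like it was Edn1 (r = 0.75), for Cd36 BC028528 (r = 0.74), for Plin2 Fasn (r = 0.63), for Cd9 Mtus1 (r = 0.68) and for Abca1, which was at background, Slc24a1 (r = 0.64).

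Likeness to alveolar macrophage markers was uneven among the members and mostly lower without the smoke arrays. Against the mean of 15 alveolar macrophage markers, members left out, r over 39 run-centred arrays was 0.65 for Pparg, 0.63 for Abcg1, 0.61 for Gpnmb, 0.51 for Trem2, 0.46 for Plin2, 0.44 for Lpl and 0.38 for Cd9. In the 29 arrays without smoke or 6 week sham m2 these were 0.49 for Pparg, 0.37 for Abcg1, 0.09 for Gpnmb, 0.17 for Trem2, 0.15 for Plin2, 0.37 for Lpl and 0.05 for Cd9. For Cd36 r was 0.22 and 0.24, and for Fabp4 0.14 and 0.08. The mean of 22 general macrophage and monocyte markers was set against the members in the same way. Over 39 and 29 arrays r was 0.39 and 0.47 for Gpnmb and 0.46 and 0.47 for Trem2. For Cd36 it was 0.40 and 0.39, for Abcg1 0.38 and 0.25, for Lpl 0.31 and 0.25, and for Pparg 0.26 and 0.14. Plin2 had 0.20 and 0.003, Cd9 0.10 and -0.04, and Fabp4 -0.01 and -0.06. With the mean of 19 adipocyte markers r was 0.79 and 0.80 for Fabp4 and 0.39 and 0.47 for Lpl. Fabp4 thus went with the adipocyte list more than with either macrophage list, and which cells gave its signal was not tested. With endothelial markers its r was -0.01 and -0.04. For Lpl neither the alveolar macrophage nor the adipocyte markers stood clearly above the other. In the 29 arrays other cell types reached similar values for some members. With endothelial, type II and neutrophil markers in turn r was 0.20, -0.08 and 0.30 for Gpnmb and 0.26, 0.25 and 0.06 for Trem2. It was 0.07, 0.33 and 0.05 for Pparg and -0.04, 0.41 and 0.33 for Lpl. With the mean of 22 PPAR-responsive lipid genes r was 0.90 and 0.92 for Fabp4 and 0.61 and 0.72 for Lpl.

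Few macrophage markers passed the test, and those of alveolar macrophages lay mostly above 0. Of 24 alveolar macrophage markers 17 were measured, including Pparg and Lpl; Ear1, Ear2, Ear10 and Cd200r4 had no probe under these names, and Il1rn, Mcoln3 and Kcnn3 did not pass the filter. At 12 weeks 14 of the 17 had a difference above 0 and 2 passed, Pparg and the keratin Krt19 (0.81 ± 0.15, SE, limma, adjusted p = 0.00345). Which cells of the whole lung gave the Krt19 difference was not tested. The mean log2 ratio of the other 15 markers had a range of 1.24 to 1.67 for 12 week sham and 1.69 to 2.16 for 12 week smoke, without overlap. Its median in 12 week sham, 1.42, was the lowest of the 8 groups. Of single probes 0.376% passed as higher at 12 weeks, and 1.99% were higher without overlap. Neither share applies to a mean of 15 markers. At 6 weeks 17 of 17 were above 0 and none passed, or 1 (Krt19, 0.71, limma, adjusted p = 0.000348) without 6 week sham m2, with means of 1.30 to 1.80 in sham, where the highest was 6 week sham m2, and 1.86 to 2.47 in smoke. Over both durations 9 of 17 passed, beside 0.985% of all probes higher. The 9 include the members Pparg and Lpl, and also Marco and Chil3.

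After the break the same 15 markers had overlapping means, with medians of 1.68 for 6 week break sham, 1.57 for 6 week smoke and break, 1.77 for 12 week break sham and 1.72 for 12 week smoke and break. On all 39 arrays 10 of the 17 markers were above the threshold, and the fewest arrays were 17, for Krt79. Of 22 general macrophage and monocyte markers measured, none passed at 6 weeks with or without 6 week sham m2 and 1 did at 12 weeks, the lysosomal protease Ctss (1.11 ± 0.25, SE, limma, adjusted p = 0.0331), and their mean was 1.00 to 1.13 in sham and 1.12 to 1.44 in smoke. In whole lung, more macrophages and more RNA per macrophage cannot be told apart, and the part of cell number in the differences of Gpnmb, Trem2 and Pparg was not tested.

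**Figure D5:**
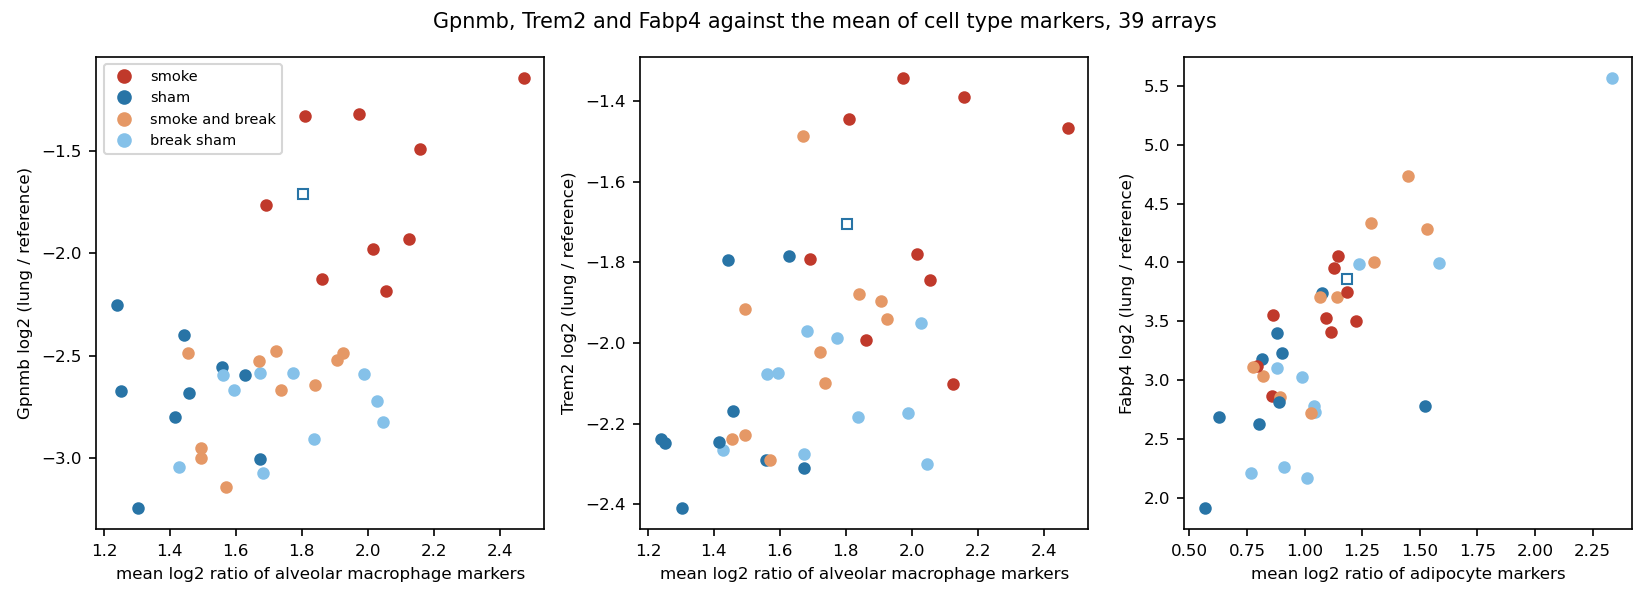
Log2 ratio (vertical axes) of Gpnmb and Trem2 against the mean log2 ratio of 15 alveolar macrophage markers, and of Fabp4 against that of 19 adipocyte markers (horizontal axes), 1 point per array, with an open square for 6 week sham m2. Recent smoke arrays, in red, lie above all others except the open square in the Gpnmb panel. In the Trem2 panel 6 week smoke goes down to -2.10, among the other groups. On the marker axis red points go down to 1.69 and 6 week break sham reaches 2.05. The Fabp4 panel rises from 1.92 to 5.56 along the adipocyte axis with groups mixed.

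For the pathways around the members, lists drawn up with earlier results known were counted. Of 29 measured genes of Trem2 signalling and lipid-loaded macrophages, 27 had a difference above 0 at 12 weeks with a median of 0.33, and 4 rose. Beside Gpnmb and Trem2 these were the lysosomal proteases Ctsd (0.69 ± 0.15, SE, limma, adjusted p = 0.0163) and Ctss. Tyrobp, the adaptor through which Trem2 signals, had 0.48 ± 0.23 (SE, limma, adjusted p = 0.527), and Lgals3, a galectin, had 0.68 ± 0.18 (SE, limma, adjusted p = 0.106). The factors of lysosome genes were uneven, with Tfeb at 0.50 and Mitf at -0.03, neither past the test. At 6 weeks 24 of 29 were above 0 and none passed, and 2 did without 6 week sham m2.

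Lists of lipid flow moved little at 12 weeks. None of 24 genes of lipid uptake and binding passed (median 0.13), and those with the largest differences were Olr1, a receptor of oxidized lipoprotein (1.22, limma, adjusted p = 0.0824), the scavenger receptor Marco (0.78) and Fabp4. Over both durations Olr1, Marco, Scarb2 and Lpl rose. None of 26 PPAR-responsive genes passed (median 0.04), the largest differences being 0.72 for Pdk4, 0.66 for Cidea and 0.61 for Cidec, of which the last pair coat lipid droplets. None of 18 LXR-responsive cholesterol genes passed (median 0.05), where Lpl, the fatty acid synthase Fasn (0.53) and Abcg1 differed most. Lpl was the 1 gene of each of these last lists that rose over both durations.

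None of 20 sterol synthesis genes passed (median -0.08, 5 of 20 above 0), with Pmvk at 0.59, Cyp51 at -0.41 and Hmgcs1 at -0.39. Of 23 genes of lipid droplets and lipid breakdown Ctsd passed (median 0.04), and over both durations Npc2 and Scarb2, which serve lysosomal cholesterol, rose with it. At an unadjusted p under 0.05 the whole array had 1645 probes at 12 weeks. At 6 weeks none of these genes passed, and without 6 week sham m2 Ctsd did (0.66, limma, adjusted p = 0.025). No gene on any of the 12 lists fell.

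Of 19 adipocyte, 22 endothelial, 18 alveolar type II and 14 neutrophil markers measured, none passed at 12 weeks or at 6 weeks, with medians of 0.17, 0.12, 0.12 and -0.12 at 12 weeks and of 0.10, 0.06, 0.18 and 0.20 at 6 weeks. The medians of the general macrophage markers, 0.18 and 0.21, were of the same size as the highest of these. Those of the 17 alveolar macrophage markers, with Pparg and Lpl among them, were higher, at 0.63 at 12 weeks and 0.53 at 6 weeks. The largest 12 week differences were 0.92 for Ucp1, -0.72 for Cyp2e1 and 0.66 for Cidea among adipocyte markers and 0.72 for Flt1, 0.48 for Epas1 and 0.34 for Cldn5 among endothelial ones. Among type II markers they were 0.68 for Ctsh, 0.51 for Sftpd and 0.38 for Cxcl15, and among neutrophil markers 1.46 for Chil3, which macrophages also make, -0.62 for Mmp8 and -0.55 for Il1b. Over both durations Chil3 and Lcn2 rose among the neutrophil markers. The adipocyte mean was widest in 6 week break sham, at 0.88 to 2.33, and in 6 week sham, at 0.57 to 1.52. Its medians were 0.82 in 6 week sham, 1.12 in 6 week smoke, 0.89 in 12 week sham and 1.12 in 12 week smoke, with overlap between sham and smoke at each duration. Adipoq and Plin1, which define fat cells, were above the threshold on 38 arrays each and Cidec on 39. The part of fat tissue in the Fabp4 values was not tested.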

How the data were processed

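Per the labels, 39 lungs were hybridized to 2-colour oligonucleotide arrays (Cy5 lung, Cy3 reference, 1 orientation). The authors deposited unnormalized spot and background intensity values from ImaGene, and log2 ratios after their own normalization; a genome build is not given in the sources used here. Spot medians were background corrected (normexp, offset 50), loess normalized within arrays with controls at weight 0, and averaged per probe, using limma 3.58.1 in R 4.3.3. A probe was kept where Cy5 exceeded the trimmed mean plus 3 trimmed SD of negative control spots (5% trimmed at each end) in at least 4 arrays of 1 group. The limma model held 8 groups and, as a block, 5 runs read from the order of the dates of exposure in the labels; the study's hybridization dates were not used here. P-values were adjusted by Benjamini-Hochberg over 17560 probes at 0.05. The code was tested on simulated data.

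The members and lists were chosen with earlier results of these data known. From each list, genes past the test in either smoke comparison were to be named, otherwise those with large 12 week differences; other genes named here (Tyrobp, Lgals3, Tfeb, Mitf, Adipoq, Plin1, Cidec) were chosen after their values were seen. Genes most alike were the 3 highest by r over run-centred ratios. Each array is 1 mouse, and the number of mice limits the precision.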

Additional observations from a re-analysis of the deposited data

Results flagged for a closer look

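Among 80 groups of values (10 genes in 8 groups), 7 had a highest or lowest mouse set apart from its group mates by Dixon's ratio at the 95% level, and chance sets apart about 1 in 20 groups. For Cd9 the lowest mouse was m1 in 6 week break sham (0.20), in 6 week smoke and break (0.87) and in 12 week break sham (1.09), all arrays of the first run with the lung spot at the scanner limit. For Cd36 it was m4 in 6 week smoke (3.40) and m5 in 6 week break sham (3.21). The highest mouse stood apart for Gpnmb in 6 week smoke (m5, -1.15) and for Abca1 in 6 week sham (m3, 0.73), a gene at background there.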

How the results depend on the processing

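The counts of members called were recomputed under 15 other settings and without each of the 39 arrays. The 12 week count of 3 fell to 1 with median centring in place of loess, where Trem2 and Pparg had an adjusted p of 0.0524 each, and to 0 with the lung channel alone or with only the 2 groups in the fit. Over both durations the count of 4 fell to 0 with the lung channel alone and to 1 with only the 4 groups of that comparison. Lpl lost its call there in 6 of the 15 settings, and with marked spots left out Abcg1 gained one (limma, adjusted p = 0.0206). With only its own groups, the change over the break at 12 weeks gave 1 member, Gpnmb (1.00, limma, adjusted p = 0.0408). The causes of these changes were not tested. Fits on fewer groups take the spread from fewer arrays. For Gpnmb over the break at 12 weeks the SE was 0.18 in that fit and 0.27 in the fit of all 8 groups. Without 1 array the count ranged from 0 to 1 at 6 weeks, from 2 to 3 at 12 weeks (2 without 12 week smoke m1 or m2) and from 2 to 5 over both durations (2 without 6 week sham m1 or 12 week smoke m1). In each of the other 5 comparisons it was 0 throughout the 39 fits. No called member changed direction.

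Over all probes the 12 week count of 76 ranged from 11 to 203 across settings, the 6 week count of 11 from 0 to 46 and the count of 214 over both durations from 45 to 440. The authors' log2 ratios put the highest group of 9 of 10 members in the same place, Abca1 being the exception. With run means kept, 4 pairs of 45 had r over 0.5 and with them removed 5. Each member has 1 probe, so averaging probes of a gene changed nothing and gave no further value. No paired analysis was possible because the labels number mice without tying mice of different groups to each other, and the runs served as the block. Depth limits Abca1, at background, and Cd9, at the scanner limit on 12 arrays.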
